A study of Homo sapiens with 4 samples.

Results

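The neurotrophin system was examined through 5 genes, the ligands BDNF and NTF3 and the receptors NGFR, NTRK2 and SORT1. They were found by symbol as 5 of the 25411 gene rows in the tables of 4 libraries. The members were chosen by the read counts and RPKM of these same 4 libraries, cadmium against control, so the members' levels and fold changes are given as a description, and no test of theirs is used as support. The cells were BEAS-2B, an established line derived from human bronchial epithelium and immortalised with viral genes. The cadmium group was 2 libraries of cells grown for 72 h with 5 µM cadmium chloride. The control group was 2 libraries of cells grown for 72 h, and both groups came from the same line in the same kind of medium. The labels do not state whether replicates came from different cultures, so a p-value here reflects library-to-library spread that may be technical. The labels place the controls under experiment 1 and the cadmium libraries under experiment 2, so experiment and treatment cannot be told apart. Reads are from bulk RNA, in which fewer cells that express a gene and less RNA per cell cannot be told apart.

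Neurotrophins are small secreted growth factors, made as precursors that proteases cut to the mature form. Each mature neurotrophin binds a preferred receptor tyrosine kinase of the Trk family, BDNF binding TrkB (encoded by NTRK2) and NT-3 (encoded by NTF3) binding TrkC. All of them also bind the p75 receptor, encoded by NGFR, which has no kinase and belongs to the tumour necrosis factor receptor family. Sortilin, encoded by SORT1, sorts cargo between the Golgi and endosomes, steers the BDNF precursor in the secretory pathway and can join p75 as a co-receptor for precursors. In airways, p75 is known as a surface marker of basal cells, and neurotrophins are known from work on airway nerves and asthma.

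Of the 5 genes, 3 had reads and 2 had none in any library. BDNF was lower in the cadmium libraries, NGFR was higher from a low level, and SORT1, the most abundant, differed little. NTF3 and NTRK2 were at 0 reads throughout. Of the 3 members that passed the filter on low counts, 1 was past the threshold as higher and 1 as lower (edgeR, Benjamini-Hochberg adjusted p under 0.05 over 13663 genes), and SORT1 was not past it. Among all tested genes 16.5% were past the same threshold in either direction, 8.85% as higher and 7.66% as lower. All 3 had cadmium and control libraries that did not overlap, as did 62.1% of all tested genes. The choice of members used this contrast, so these counts are printed only beside the shares over all genes and nothing is read from them. The 4 libraries held from 8609243 to 29937242 reads assigned to genes, the fewest in control replicate 2. Levels are CPM, reads divided by TMM-adjusted library size, and values set side by side between genes are RPKM, which is also per length. The exposure itself was visible in MT2A, a metallothionein that binds cadmium, with 3596 and 3315 CPM in the cadmium libraries against 277 and 378 CPM in the controls. HMOX1, a heme-degrading enzyme induced by cadmium, had 107 and 95.9 CPM with cadmium against 42.7 and 51.1 CPM in control.

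The sequences below place the members beside the microRNA in the study's title and beside their own start sites. MicroRNA miR-30e pairs with targets through its seed, bases 2 to 8, and is shown in RNA letters with the seed in capitals because the title of the study names its lower expression under cadmium. These 22 bases, the mature arm, lie at chr1:40754371-40754392 on the plus strand (RefSeq, GRCh38.p14).
hsa-miR-30e-5p: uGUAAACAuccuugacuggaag
In the longest 3' untranslated region of each member (GENCODE v29, GRCh38), the full seed match TGTTTAC was absent from BDNF, NTF3, NGFR and SORT1. NTRK2 held 1 match. BDNF held 1 match to the form GTTTACA, which leaves out the letter opposite position 8 and ends in an added A. In the BDNF match the letter opposite position 8, a c, does not pair. Both are shown because they were the only such matches in the members, with the matched letters in capitals.
BDNF site, chr11:27657415-27657440, minus strand: tgaaccaaaacattccGTTTACAttt
NTRK2 site, chr9:84873911-84873936, plus strand: gatattctgaagactgTGTTTACtcc
Among 4301 coding genes with an untranslated region within a factor of 1.5 of the length of that of BDNF (2928 bases), 26.3% held the full match. GTTTACA was held by 24.7%, counted whether or not position 8 was paired. For the 1788 genes near the length of NTRK2 (6081 bases), the member with the full match, 44.0% held it. For the 2893 genes near the length of SORT1 (4475 bases) 36.1% held the full match, and for the 4958 near NGFR (2008 bases) 19.9% did. A match is a string of letters and was not tested as a site in these cells. No match says only that these letters are not in the region searched.

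BDNF is known for its many separate start sites, each joined to the same coding exon. The deposited row pools 17 RefSeq transcripts of BDNF, so the data do not tell which start site changed. RefSeq's promoter table held 5 start regions for BDNF, 2 for SORT1, 4 for NTRK2 and 2 for NTF3, each of 300 bases. Of the 5 BDNF regions, 1 held CACGTG, an E-box bound by basic helix-loop-helix factors such as USF1 and BHLHE40. It is shown with that E-box in capitals, because it was the only BDNF region that held this string. Binding of USF1 or BHLHE40 there was not tested in these cells.
BDNF, chr11:27720730-27721029, minus strand: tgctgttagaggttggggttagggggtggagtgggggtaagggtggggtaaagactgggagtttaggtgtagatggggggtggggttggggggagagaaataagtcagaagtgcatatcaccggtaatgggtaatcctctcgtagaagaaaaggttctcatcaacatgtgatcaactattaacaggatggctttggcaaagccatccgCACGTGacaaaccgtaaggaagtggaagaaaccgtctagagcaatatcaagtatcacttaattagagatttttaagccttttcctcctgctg
CACGTG was found in 7.26% of all 35116 start regions. The cyclic AMP response element was searched only as the string TGACGTNA, on both strands. This string was in none of the 5 BDNF regions and in 3.01% of all. The BDNF region at chr11:27701572-27701871 held a string that differs from it only in the last letter, and such near forms were not counted. The lack of a match therefore does not show that BDNF lacks such an element. The other E-box, CAGGTG, which SNAI1 binds, was in no BDNF region, in 1 of 2 SORT1 regions, in 1 of 4 NTRK2 regions, in 1 of 2 NTF3 regions and in 20.6% of all. Metal response element cores, TGCACNC or TGCGCNC, matched in 1 BDNF region, inside a repeat of alternating GC and AC letters, in 1 NTF3 region and in 29.6% of all.

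A CpG-rich start region was found in members with and without reads. The region of SORT1, the most abundant member, and that of NTRK2, which had no reads, are shown with each CG in capitals.
SORT1, chr1:109397869-109398168, minus strand: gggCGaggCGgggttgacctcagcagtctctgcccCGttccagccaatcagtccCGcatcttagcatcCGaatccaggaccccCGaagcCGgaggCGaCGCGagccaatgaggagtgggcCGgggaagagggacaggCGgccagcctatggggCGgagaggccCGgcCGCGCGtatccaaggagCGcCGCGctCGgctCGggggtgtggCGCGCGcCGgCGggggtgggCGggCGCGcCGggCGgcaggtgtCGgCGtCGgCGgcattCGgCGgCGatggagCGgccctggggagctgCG
NTRK2, chr9:84669783-84670082, plus strand: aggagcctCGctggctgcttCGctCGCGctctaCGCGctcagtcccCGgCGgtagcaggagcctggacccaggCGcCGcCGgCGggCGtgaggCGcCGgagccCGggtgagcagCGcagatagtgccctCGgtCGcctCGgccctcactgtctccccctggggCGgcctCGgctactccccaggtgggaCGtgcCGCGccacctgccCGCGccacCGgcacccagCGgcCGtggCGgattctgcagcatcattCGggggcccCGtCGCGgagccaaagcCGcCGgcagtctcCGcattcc
The SORT1 region shown held 41 CpG and the NTRK2 region shown 38, more than 93.3% and 90.1% of all start regions, whose median was 14. Each is the richest of its gene: the other SORT1 region held 3 CpG, and the other NTRK2 regions held 10, 17 and 3. The NTF3 regions held 32 and 9, and the BDNF regions held from 6 to 18. Methylation and chromatin were not measured here.

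Among the ligands, BDNF (chromosome 11, 27676442 to 27743605 in hg19, minus strand) is the growth factor best known for synaptic plasticity in neurons. It had 500 and 254 reads in cadmium replicates 1 and 2, against 824 and 225 reads in control replicates 1 and 2. On the CPM scale this was 16.3 and 16.1 with cadmium, against 31.7 and 26.7 in control. Both cadmium libraries lay below both controls, and the cadmium libraries lay closer together than the controls did. The means were 16.2 ± 0.183 CPM with cadmium and 29.2 ± 3.48 CPM in control (SD, n = 2 each). The log2 fold change was -0.86 with an SE of 0.13, or 0.551 of the control level. Among all tested genes 30.8% had both cadmium libraries below both controls. The authors' deposited table gives BDNF a log2 ratio of -0.74, and mean levels of 3.60 RPKM with cadmium and 6.38 RPKM in control. That ratio is a smaller change than that of its own means. Without control replicate 1, the library with the highest BDNF, the log2 fold change was -0.72, and without control replicate 2 it was -0.97. BDNF-AS, the antisense gene that overlaps BDNF, had 12 and 1 reads with cadmium against 5 and 2 in control. The use of strand in counting is not given in the sources used here, so reads of BDNF and of its antisense partner in shared exons cannot be told apart, but BDNF-AS had few.

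NTF3 (chromosome 12, 5603298 to 5604465 in hg19) encodes NT-3, which supports sensory neurons. It had 0 reads in each of the 4 libraries. A count of 0 allows up to 3 reads, which is 0.0980 and 0.190 CPM in the cadmium libraries and 0.115 and 0.356 CPM in the controls. No fold is given for it. A count of 0 in all libraries was common, shared by 3910 of 19229 genes with a coding RefSeq identifier (20.3%).

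Among the receptors, NGFR (chromosome 17, 47572655 to 47592382 in hg19, plus strand) encodes p75. It had 164 and 52 reads in the cadmium libraries, against 43 and 9 reads in the controls. This was 5.36 and 3.29 CPM with cadmium, against 1.65 and 1.07 CPM in control. Both cadmium libraries lay above both controls, as did 31.3% of all tested genes, and cadmium replicate 1 was the highest. The means were 4.32 ± 1.46 CPM with cadmium and 1.36 ± 0.412 CPM in control (SD, n = 2 each). The log2 fold change was 1.60 with an SE of 0.35, or 3.02-fold. The counts were small, down to 9 reads in the shallowest library. Without cadmium replicate 1 the log2 fold change of NGFR was 1.20 and the gene left the count given above, and without control replicate 1 it was 2.04. The authors' deposited table gives NGFR a log2 ratio of 0.75 between 1.14 RPKM with cadmium and 0.351 RPKM in control, a ratio smaller than that of its own means.

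**Figure D1:**
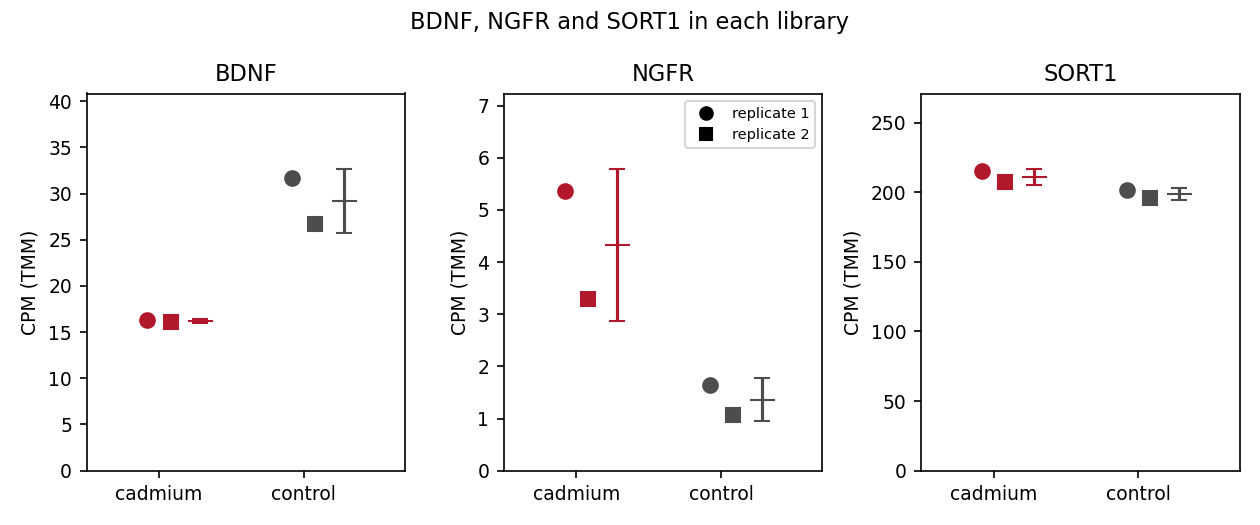
CPM with TMM factors of BDNF, NGFR and SORT1 in the 2 cadmium and 2 control libraries (circle, replicate 1; square, replicate 2), with the mean and SD of each group at the right of its points; each panel has its own scale from 0. BDNF lies at 16.1 to 16.3 CPM with cadmium and 26.7 to 31.7 CPM in control, NGFR is above control in both cadmium libraries, and SORT1 stays between 196 and 215 CPM in all 4.

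NTRK2 (chromosome 9, 87285292 to 87641985 in hg19), which encodes TrkB, the kinase receptor of BDNF, had 0 reads in all 4 libraries across a row that pools 6 RefSeq transcripts. Its limit is the same as for NTF3, at most 0.0980 and 0.190 CPM with cadmium and 0.115 and 0.356 CPM in control. NTRK3, the kinase receptor gene of NT-3, had 3 and 4 reads with cadmium against 1 and 0 in control. It did not pass the filter on low counts, and no fold is given.

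SORT1 (chromosome 1, 109852188 to 109940563 in hg19, minus strand) had 6587 and 3274 reads with cadmium, against 5248 and 1648 reads in control. This was 215 and 207 CPM with cadmium, against 202 and 196 CPM in control. Both cadmium libraries lay above both controls, but by a small margin. The means were 211 ± 5.64 CPM with cadmium and 199 ± 4.13 CPM in control (SD, n = 2 each). The log2 fold change was 0.088 with an SE of 0.078, or 1.06-fold. Scaling by library size alone gave 0.15.

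Per length, the order of the members was the same in all 4 libraries. SORT1 stood at 27.4 and 26.1 RPKM with cadmium and 25.0 and 24.3 RPKM in control. BDNF stood at 3.63 and 3.57 RPKM with cadmium and 6.89 and 5.87 RPKM in control, and NGFR at 1.41 and 0.866 RPKM with cadmium and 0.429 and 0.272 RPKM in control. The ranges of SORT1, BDNF and NGFR did not overlap, and NTF3 and NTRK2 shared the last place at 0. The mean RPKM of SORT1 was above that of 82.5% of genes with reads in the cadmium group and of 79.9% in the control group. For BDNF these shares were 47.1% with cadmium and 55.1% in control, and for NGFR 33.9% with cadmium and 22.7% in control. The ratio of BDNF to NGFR in RPKM was 2.57 and 4.13 in the cadmium libraries, against 16.1 and 21.6 in the controls. SORT1 RPKM was 7.56 and 7.31 times that of BDNF with cadmium, against 3.63 and 4.14 times in control. For BDNF, whose row holds several transcripts, the deposited RPKM and the reads were not in a fixed proportion, but that proportion varied by only 1.58% between libraries.

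**Figure D2:**
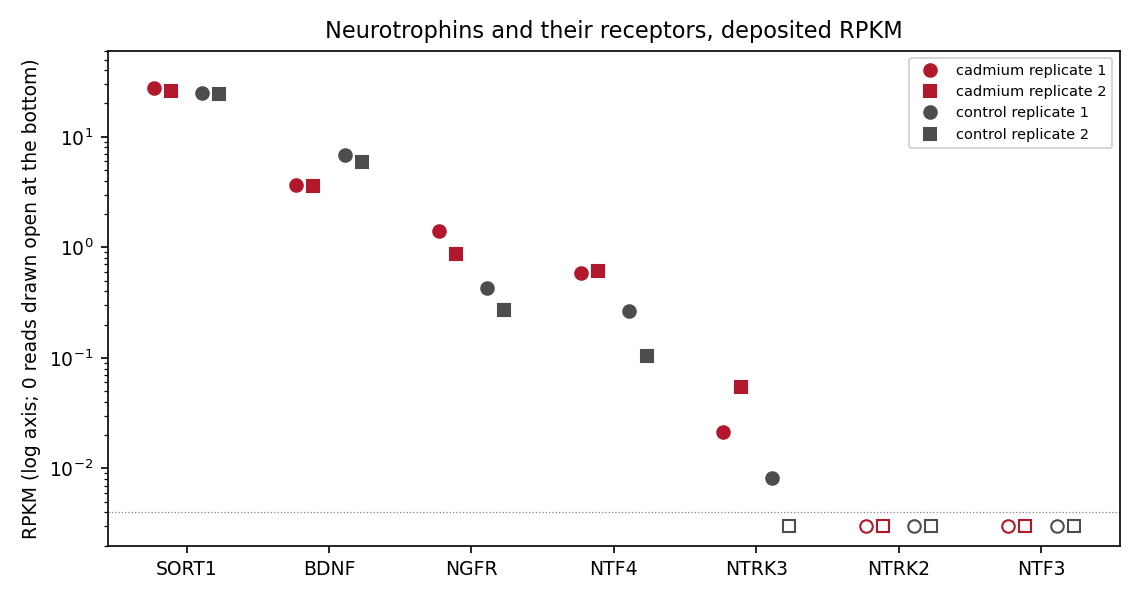
Deposited RPKM on a log axis for the 5 members, NTF4 and NTRK3 in the 2 cadmium (red) and 2 control (grey) libraries, with libraries at 0 reads drawn as open symbols below the dotted line. SORT1 is highest in every library, BDNF is lower with cadmium, NGFR is higher with cadmium, and NTRK2 and NTF3 have 0 reads in all 4.

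The patterns most like each member were sought among 10788 tested genes with a mean of at least 5 CPM, by the Euclidean distance of log2 CPM centred on each gene's mean, over the 4 libraries. For BDNF the nearest were C1orf122 (distance 0.015), DOHH (0.099), an enzyme that modifies translation factor eIF5A, and SMAD7 (0.11), an inhibitor of TGF-beta signalling, and 30 genes lay within a distance of 0.2. For NGFR they were the Notch receptor gene NOTCH3 (0.14), MAPT (0.19), which encodes the microtubule protein tau, and the ephrin receptor gene EPHB3 (0.40), and 2 genes lay within 0.2. For SORT1 they were FAM189A1, TTLL5 and MTF2, with distances from 0.0084 to 0.015, and 2394 genes lay within 0.2. With 4 libraries in 2 groups, such distances describe level differences between libraries only.

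The cells were checked against markers, as p75 is a marker of other cells too. Of 9 bronchial epithelial markers, FOXA2 was at 0 in all libraries and KRT19 had at most 7 reads, while KRT8 stood at 587 and 617 CPM with cadmium against 540 and 649 CPM in control. The summed level of these 9 was 1090 and 1200 CPM with cadmium, against 1271 and 1477 CPM in control. Of the 6 tested, 2 rose, 1 fell and 3 did not pass. KRT7, a keratin of simple epithelia, had 246 and 288 CPM with cadmium against 523 and 558 CPM in control, and it fell (log2 fold change -1.02, SE 0.096, edgeR adjusted p = 0.00234). KRT8 and KRT18 did not pass. EPCAM, an epithelial adhesion gene, rose by 1.36 (adjusted p = 0.0131, edgeR), with 5.94 and 5.06 CPM with cadmium against 2.04 and 2.38 CPM in control. FOXA1, a transcription factor gene of airway epithelium, rose by 1.41 (adjusted p = 0.0180, edgeR), with 3.20 and 3.67 CPM with cadmium against 1.27 and 1.31 CPM in control. EPCAM was not past the threshold without cadmium replicate 1 (adjusted p = 0.0994, edgeR). FOXA1 was not past it without cadmium replicate 1, cadmium replicate 2 or control replicate 1 (adjusted p = 0.0780, 0.0963 and 0.0502, edgeR) or with DESeq2 (adjusted p = 0.0510). CDH1, a defining epithelial gene, had 28 and 15 reads with cadmium against 11 and 1 in control. Of 7 basal airway cell markers including NGFR, the defining markers KRT5, KRT14 and TP63 had from 0 to 1 read in each library. The summed basal marker level was 143 and 94.0 CPM with cadmium, against 38.1 and 56.7 CPM in control, and KRT17 made up most of it. KRT15 was higher (log2 fold change 2.56, SE 0.60) on few reads, 31 and 11 with cadmium against 4 and 1 in control. Only its cadmium libraries brought KRT15 past the filter on low counts, so no test of it is used as support. With 1 library left out its log2 fold change ranged from 2.22, without cadmium replicate 1, to 2.83, without control replicate 1. The part of basal-type expression in the NGFR difference was not tested. Of 13 neuron markers 6, among them MAP2, STMN2 and DCX, were at 0 in all libraries, and the sum was 122 and 143 CPM with cadmium against 92.5 and 90.8 CPM in control, nearly all of it TUBB3. Of 8 Schwann and glial markers FOXD3 was at 0, SOX10 had at most 5 reads and S100B at most 2, and the sum was 59.1 and 57.0 CPM with cadmium against 21.9 and 34.7 CPM in control, nearly all from ERBB3 and MBP. Of 8 fibroblast markers COL3A1 and DCN were at 0, and the sum was 4039 and 3818 CPM with cadmium against 5091 and 4260 CPM in control, most of it COL1A1. THY1 stood at 588 and 543 CPM with cadmium against 548 and 536 CPM in control. PDGFRB stood at 187 and 205 CPM with cadmium against 162 and 185 CPM in control. COL1A2, LUM and PDGFRA had few reads. Of the 4 fibroblast markers tested, 0 rose, 0 fell and 4 did not pass. The 6 leukocyte markers summed to 12.3 and 8.42 CPM with cadmium against 7.15 and 11.6 CPM in control, with CD3E and LYZ among those at 0. The 6 endothelial markers summed to 0.686 and 1.01 CPM with cadmium against 0.576 and 0.475 CPM in control, with PECAM1 at 0.

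Among the other ligands and receptors of the family, 12 genes were listed and 7 tested, of which 2 rose, 1 fell and 4 did not pass. Their median log2 fold change was 0.67, beside 0.0019 over all tested genes. Among all tested genes 8.85% rose and 7.66% fell, and the counts of this list and of those below stand beside these shares. NTF4, the ligand of TrkB beside BDNF, had 20 and 11 reads with cadmium against 8 and 1 in control. Its log2 fold change was 1.37 (SE 0.56), and it is counted among the 4 that did not pass. Only its cadmium libraries brought NTF4 past the filter on low counts, so no test of it is used as support. RTN4R, which encodes the Nogo receptor that signals with p75, rose by 0.87 (SE 0.15, adjusted p = 0.0102, edgeR), with 18.0 and 17.5 CPM with cadmium against 9.37 and 10.2 CPM in control. TNFRSF21, a death receptor related to p75, rose by 0.67 (adjusted p = 0.0400, edgeR). RTN4R was not past the threshold without cadmium replicate 1 (adjusted p = 0.0633, edgeR), and TNFRSF21 was not without either cadmium replicate (adjusted p = 0.328 and 0.0512, edgeR). SORL1 and SORCS2, relatives of sortilin, did not pass, and SORCS1 and SORCS3 were at 0 reads.

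Proteases that cut neurotrophin precursors numbered 11, of which 4 were tested, 1 rose, 1 fell and 2 did not pass (median log2 fold change 0.16). MMP3, a matrix metalloproteinase that acts outside the cell, had 7.41 and 7.40 CPM with cadmium, against 1.08 and 0.713 CPM in control. It rose by 2.94 log2 units (SE 0.28, adjusted p = 0.00234, edgeR). PCSK7, a proprotein convertase of the secretory pathway, fell (log2 fold change -0.36, SE 0.094, edgeR adjusted p = 0.0343), with 72.3 and 69.7 CPM with cadmium against 95.6 and 86.9 CPM in control. PCSK7 was not past the threshold without cadmium replicate 1, cadmium replicate 2 or control replicate 1 (adjusted p = 0.165, 0.201 and 0.0986, edgeR), with library size alone (adjusted p = 0.0612, edgeR) or with the replicate block (adjusted p = 0.0517, edgeR). FURIN, the main convertase for these precursors, stood at 143 and 148 CPM with cadmium and 132 and 137 CPM in control and did not pass. PLG, which encodes plasminogen, was at 0 reads in all libraries, and PLAT, which encodes its activator, did not pass.

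Proteins that bind the cytoplasmic part of p75 or carry its signal were nearly all present. Of the 12 such genes found, 11 were tested, of which 0 rose, 1 fell and 10 did not pass (median log2 fold change -0.13). ARHGDIA, a GDP-dissociation inhibitor of small GTPases, fell (log2 fold change -0.40, SE 0.075, edgeR adjusted p = 0.0134), with 675 and 722 CPM with cadmium against 925 and 918 CPM in control. Without cadmium replicate 1 ARHGDIA was not past the threshold (adjusted p = 0.116, edgeR). NGFRAP1, a p75-binding protein, stood at 176 and 164 CPM with cadmium and 178 and 185 CPM in control and did not pass.

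Adaptors and effectors of Trk receptors numbered 22, of which 19 were tested, 3 rose, 0 fell and 16 did not pass (median log2 fold change -0.078). GAB2 rose by 0.84 (SE 0.12, adjusted p = 0.00626, edgeR), with 50.8 and 52.0 CPM with cadmium against 26.6 and 31.4 CPM in control. SH2B2 rose by 0.83 (adjusted p = 0.0249, edgeR) and IRS2 by 0.68 (adjusted p = 0.0162, edgeR). These docking proteins serve other receptors as well, among them the insulin receptor. SH2B2 was not past the threshold without cadmium replicate 1, cadmium replicate 2 or control replicate 1 (adjusted p = 0.119, 0.141 and 0.0757, edgeR), nor IRS2 without cadmium replicate 1 (adjusted p = 0.0622, edgeR). Core adaptors such as SHC1 (404 and 422 CPM with cadmium, 373 and 381 CPM in control) and GRB2 did not pass.

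Partners of sortilin in traffic numbered 12, all tested, of which 1 rose, 0 fell and 11 did not pass (median log2 fold change 0.027). IGF2R, another sorting receptor between Golgi and endosome, rose by 0.31 (SE 0.073, adjusted p = 0.0245, edgeR), with 716 and 720 CPM with cadmium against 586 and 570 CPM in control. It was not past the threshold without either cadmium replicate (adjusted p = 0.138 in both cases, edgeR). The retromer genes VPS35, VPS26A and VPS29, which return sortilin from endosomes, did not pass.

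Factors known to act at BDNF in neurons numbered 13, of which 12 were tested, 2 rose, 0 fell and 10 did not pass (median log2 fold change 0.031). BHLHE40, a repressor that binds E-boxes, had 49.4 and 56.8 CPM with cadmium, against 27.5 and 30.1 CPM in control, and rose by 0.89 (SE 0.12, adjusted p = 0.00537, edgeR). NFATC4, a calcium-regulated factor, rose by 0.74 (SE 0.10, adjusted p = 0.00574, edgeR), with 58.8 and 55.6 CPM with cadmium against 34.3 and 34.2 CPM in control. Both were past the threshold in every alternative. CREB1, REST, USF1 and USF2 did not pass, and NPAS4 had too few reads to be tested. The part of these factors in the BDNF difference was not tested.

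Genes known to rise early after Trk activation in neurons numbered 12, of which 9 were tested, 2 rose, 0 fell and 7 did not pass (median log2 fold change 0.85). Of the 9, 6 had a positive log2 fold change. It was negative for DUSP6 (-0.51), SPRY2 (-0.18) and SPRY4 (-0.745), which did not pass. FOSB rose by 1.24 (SE 0.33, adjusted p = 0.0410, edgeR), with 10.6 and 7.85 CPM with cadmium against 4.99 and 2.26 CPM in control. NR4A1, an orphan nuclear receptor gene, rose by 0.85 (SE 0.14, adjusted p = 0.00911, edgeR). These genes also respond to serum and stress. Control replicate 2 stood apart in them, with EGR1 at 280 and 218 CPM with cadmium against 192 and 30.4 CPM in control, and FOS at 25.8 and 17.1 CPM with cadmium against 17.2 and 2.26 CPM in control. FOSB was not past the threshold without cadmium replicate 1 (adjusted p = 0.193, edgeR) or with the crossed pairing of replicates (adjusted p = 0.0532, edgeR).

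The GDNF family and other neurotrophic factors numbered 17, of which 12 were tested, 5 rose, 1 fell and 6 did not pass (median log2 fold change 0.65). GDNF itself had 4.74 and 5.44 CPM with cadmium against 19.3 and 7.36 CPM in control. Both cadmium libraries lay below both controls, but its log2 fold change of -1.47 (SE 0.45) did not pass (adjusted p = 0.0854, edgeR). NRTN, which encodes neurturin, rose by 1.28 (SE 0.27, adjusted p = 0.0174, edgeR), with 10.8 and 7.85 CPM with cadmium against 3.27 and 4.87 CPM in control. ARTN, which encodes artemin, rose by 1.15 (SE 0.24, adjusted p = 0.0184, edgeR) and averaged 9.34 ± 0.926 CPM with cadmium and 3.98 ± 1.27 CPM in control (SD, n = 2 each). The leukaemia inhibitory factor receptor gene LIFR rose by 0.64 (adjusted p = 0.0149, edgeR). MANF, which also rose (0.34, adjusted p = 0.0491, edgeR), and the cytokine gene CLCF1, which fell (log2 fold change -0.57, edgeR adjusted p = 0.0245), were named after their values were seen. CLCF1 was not past the threshold without cadmium replicate 1 or 2 (adjusted p = 0.0805 and 0.183, edgeR). MANF was not past it without cadmium replicate 1, cadmium replicate 2 or control replicate 2 (adjusted p = 0.0994, 0.326 and 0.0732, edgeR), with the replicate block (adjusted p = 0.0655, edgeR), with DESeq2 (adjusted p = 0.0510) or with limma-voom (adjusted p = 0.0554). The kinase receptor gene RET had 8 and 0 reads with cadmium against 2 and 0 in control. NRTN was not past the threshold without cadmium replicate 1, and ARTN and LIFR were not without cadmium replicate 2.

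**Figure D3:**
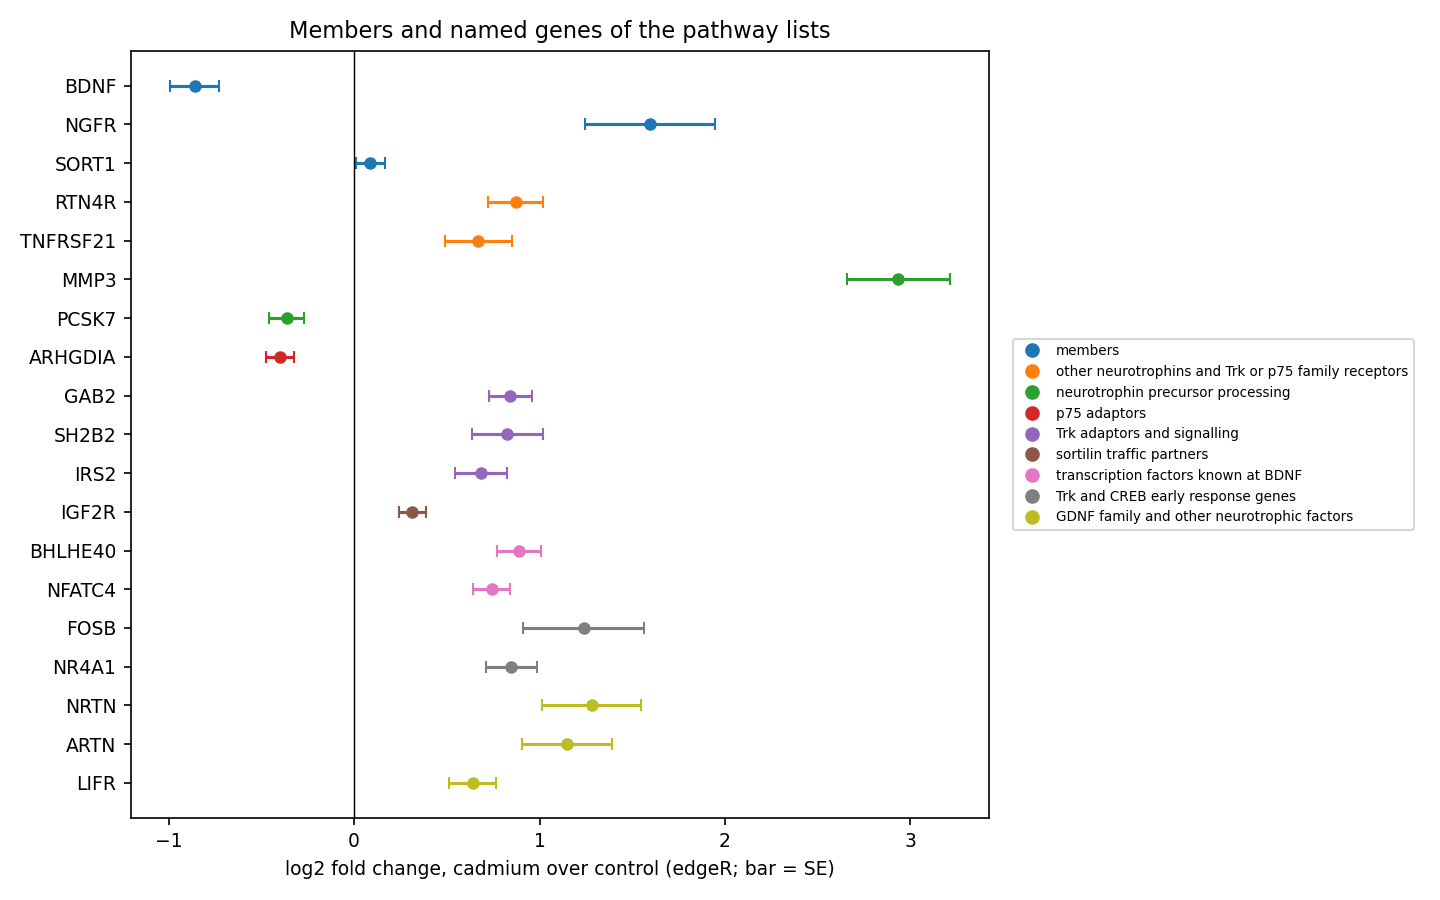
Log2 fold change of cadmium over control with its SE (edgeR) for the 3 tested members and genes named from 8 pathway lists, coloured by list. BDNF, PCSK7 and ARHGDIA lie left of 0, NGFR, RTN4R and MMP3 right of it, and SORT1 next to 0.

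**Figure D4:**
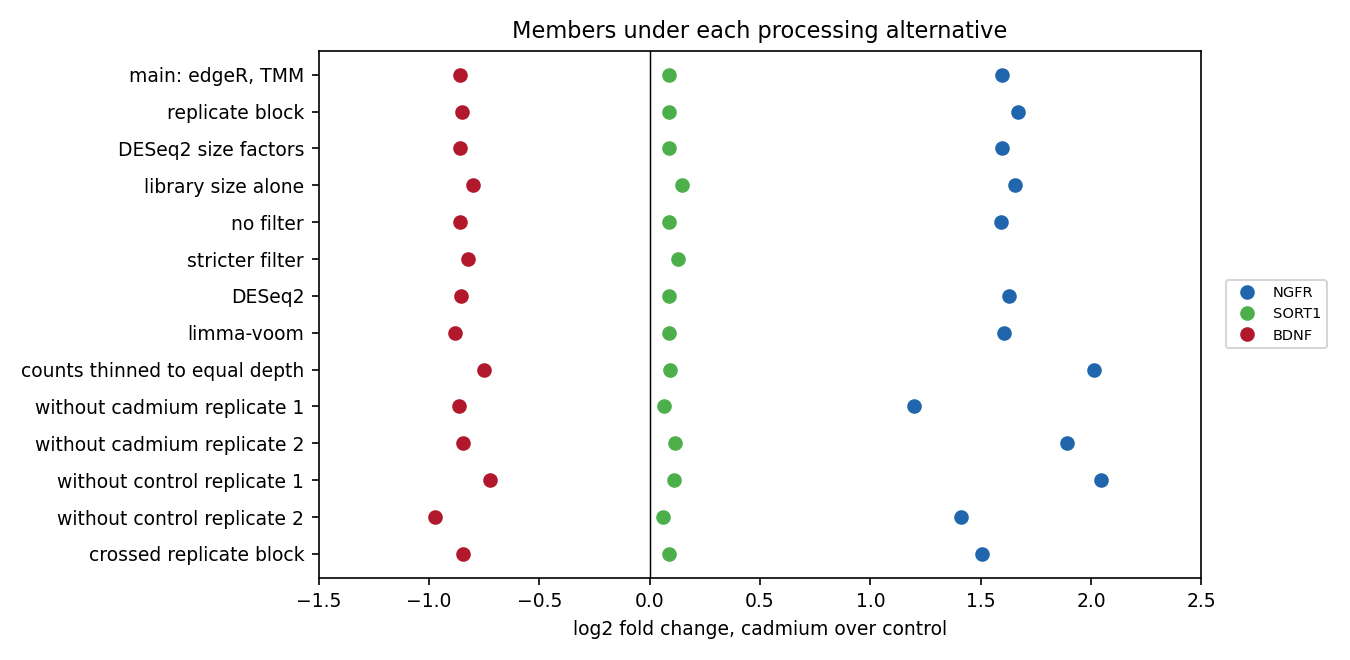
Log2 fold change of cadmium over control for NGFR, SORT1 and BDNF in the fit reported here and in 13 alternatives, one row each. BDNF lies left of 0 in each row, from -0.97 to -0.72, NGFR lies right of 0, from 1.20 to 2.04, with no value under the stricter filter, and SORT1 lies between 0.059 and 0.15.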

How the data were processed

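RNA was measured in 2 cadmium and 2 control libraries of BEAS-2B cells. Total RNA was extracted on RNeasy columns and prepared with Illumina's TruSeq reagents, per the labels' protocols. STAR 2.4, DESeq2, DESeq, GRCh37 and hg19 are named, without roles, per the submitters' processing notes. Which counter, annotation release and strand setting served is not given in the sources used here. Per the file headers, each library's deposited values are read counts (whole numbers, one row a RefSeq gene) and RPKM. A further table deposited by the authors compares the groups and gives mean RPKM, a log2 ratio (its base read from the values), and p-values raw and adjusted; those p-values were not used.

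Rows were joined by RefSeq identifier. Counts were fitted with R 4.3.3 and edgeR 4.0.16 (filterByExpr, TMM, robust glmQLFit and glmQLFTest, group alone) over all 13663 tested genes. Each SE was derived from the F statistic. The procedure was tested on simulated counts. Named genes were the members and, from each of 8 lists, up to 4 genes past the threshold with the largest change; other genes given with values were singled out after their values were seen. Some genes counted in the lists are not reported here by name. The members and lists were chosen with earlier results of these data known. Intervals and limits of 3 reads cover counting error only. Replicates differed by more than sampling noise (chi-square per gene 7.35 between the cadmium and 11.3 between the control libraries). Start regions and miR-30e came from RefSeq (GRCh38.p14), and untranslated regions from GENCODE v29 (GRCh38). NGFR has no entry in the promoter table. The 13 alternatives were DESeq2 size factors, a replicate block, a crossed block, library size alone, no filter, a filter of 5 CPM in 2 libraries, DESeq2 1.42.0, limma-voom (limma 3.58.1), thinned counts and leaving out each library.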

Additional observations from a re-analysis of the deposited data

How the results depend on the processing

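The members were chosen on this contrast, so their values under the alternatives are a description. With 1 library left out the log2 fold change of BDNF ranged from -0.97 to -0.72 and that of NGFR from 1.20 to 2.04. The members counted as higher with cadmium numbered 0 without cadmium replicate 1 and 0 with the stricter filter, which NGFR did not pass (range 0 to 1 with 1 library left out). The members counted as lower numbered 1 in all 13 alternatives. SORT1 moved to 0.13 under the stricter filter and to 0.15 with library size alone, and ranged from 0.059 to 0.12 with 1 library left out. The log2 ratio of mean RPKM was -0.81 for BDNF and 1.46 for NGFR with a pseudocount of 0.1, against -0.68 and 0.66 with a pseudocount of 1.

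Over all genes, 1209 were higher and 1046 lower, which is 8.85% and 7.66% of the 13663 tested. The counts of the lists stand beside these shares, with the number tested in each list given above, and nothing further is read from them. Leaving out 1 library gave from 369 to 1977 higher and from 235 to 1791 lower, and library size alone gave 682 lower. Of the 8 lists together, 16 genes rose (7 to 17 with 1 library left out) and 4 fell (0 to 13). With 1 library left out, genes that rose numbered 0 to 2 for other ligands and receptors, 1 to 4 for Trk adaptors, 0 to 2 for sortilin partners, 1 to 4 for early response, 1 to 4 for neurotrophic factors, and genes that fell 0 to 2 for other ligands and receptors, 0 to 1 for precursor processing, 0 to 3 for p75 adaptors, 0 to 1 for Trk adaptors, 0 to 3 for early response, 0 to 3 for neurotrophic factors. Library size alone gave 0 lower for precursor processing, 2 higher for sortilin partners. No filter gave 2 lower for p75 adaptors, 5 higher for Trk adaptors, 2 higher for sortilin partners. DESeq2 gave 2 lower for p75 adaptors, 3 higher for neurotrophic factors, 2 lower for neurotrophic factors. Limma-voom gave 2 lower for p75 adaptors, 2 higher for sortilin partners, 2 lower for neurotrophic factors. Stricter filter gave 2 higher for sortilin partners.

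The values gave no sign that replicate numbers pair the libraries: the differences between replicates 1 and 2 in the cadmium and control groups correlated at -0.14 across genes. This correlation does not show how the libraries were cultured or processed. With the replicate block, 0 precursor-processing genes fell and 3 neurotrophic factors rose, and the log2 fold changes were -0.85 for BDNF and 1.67 for NGFR. The crossed pairing, chosen after seeing the data, gave 7 lower over the 8 lists, 2 lower for p75 adaptors, 5 higher for Trk adaptors, 1 lower for Trk adaptors, 2 higher for sortilin partners, 1 higher for early response, 2 lower for neurotrophic factors. The fewest NGFR reads were 9, in control replicate 2, and with counts thinned to equal depth its log2 fold change was 2.01. The causes of these differences were not tested.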
